A study of Mus musculus with 18 samples.

Results

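The 10 genes described here move chloride, bicarbonate and protons across the colon epithelium, and all probe sets whose platform symbol was exactly Cftr, Slc12a2, Slc26a3, Slc26a6, Slc9a3, Slc9a2, Slc9a3r1, Car1, Car2 or Car4 were taken. They were 10 of 18193 genes with a probe set of 1 symbol on the array, and 20 of 45037 probe sets that were not controls. Total RNA came from mouse distal colon, cut about 0.5 cm above the anus, of mice kept for 2 weeks on a daily cycle of 12 light and 12 dark hours and fed ad libitum. Lights went on at 7 and off at 19 by the clock, and tissue was taken at 6 times 4 h apart: 8am, 12pm and 4pm in the light, and 8pm, 12am and 4am in the dark. Each time had 3 Affymetrix arrays, named a, b and c, so there were 18 arrays in all, 9 in each phase. No group carried a treatment or an altered gene, and strain, sex, age and any pooling of animals are not given in the sources used here. The question was which transcripts follow the time of day.

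The surface of the colon takes up salt by pairing a sodium-proton exchanger with a chloride-bicarbonate exchanger, so that sodium and chloride enter the cell while protons and bicarbonate leave it. Carbonic anhydrases supply both ions by joining carbon dioxide and water. Secretion runs the other way: chloride enters the cell from the blood side through a sodium-potassium-chloride cotransporter and leaves through the CFTR channel, which also passes bicarbonate.

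Values are log2(signal + 16), where signal is the deposited array intensity and 16 a constant added to steady low values. Errors are SD over 3 arrays unless named SE. All 10 genes passed the filter on low values (a mean at or above the 40th percentile, 7.10), and so did 19 of their 20 probe sets. The second probe set of Cftr was left out at a mean of 6.17, and the second probe set of Slc9a3 was just inside at 7.14. One value per gene, from the probe set with the highest mean, entered the tests over 12870 genes. Levels of different genes are not compared, since probe sets differ in brightness for reasons of their own.

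A control for RNA length set 4 arrays apart. The ratio of the 3′ to the 5′ Gapdh control probe sets was 36.0 in 4am a, 34.3 in 4pm b, 18.2 in 4am b and 2.33 in 4pm c. It lay between 0.746 and 1.12 in the other 14. These 4 arrays lay at 2 collection times, so at 4pm and 4am the measure moves with the time, and results are given with all 18 arrays and with the other 14. The 14 hold 1 array at 4pm and 1 at 4am. A call lost there can therefore also come from having fewer arrays. The tissue label was checked on markers: all 10 epithelial markers were among the genes tested, with a mean of 13.12 in the median array and 12.11 in the lowest, 4am a. The 8 smooth muscle markers, from the wall of the gut, ran from 9.21 in 4am a to 12.86 in 12am a. Of the 8 listed pancreatic acinar genes 7 were tested. Sycn and Cela1 were bright in every array, with lowest values of 13.54 and 12.58, and the mean of the other 5 (Cpa1, Cela2a, Cel, Prss2 and Ctrb1, taken apart after their values were seen) ran from 5.83 in 8pm b to 14.52 in 12am b. The 3 red blood cell markers on the array, which bear on Car1 and Car2 because red cells hold both enzymes, were all below the filter. In whole tissue, fewer cells of a type and less RNA per cell cannot be told apart.

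None of the 10 genes followed a 24 h rhythm by the test, and none differed between light and dark. The calls were of pairs of times 12 h apart set against the other 4, besides 1 call for any difference between times. Car1 was higher at 8am and 8pm than at the other times, Slc26a6 was higher and Slc12a2 lower at 12pm and 12am (for Slc26a6 through 12am, which lay above 12pm with no overlap), and Cftr and Slc12a2 were higher and Car4 lower at 4pm and 4am. The 4pm and 4am differences lost their calls when the 4 arrays with high control ratios were left out, while Slc26a3, Slc9a3r1, Car1, Car2 and Car4 were then all called higher and Slc9a2 lower at 8am and 8pm. The difference between highest and lowest time mean had a median of 0.83 over the 10 genes, against 0.90 over all genes tested.

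The tests were limma fits over all genes with Benjamini-Hochberg adjustment at 0.05, two-sided, and the comparisons share arrays with each other. For a 24 h curve, 0 of the 10 genes were called, 1 had an unadjusted p under 0.05, and 0.0389% of all genes were called. For a difference between any of the 6 times, 1 of 10 was called (Slc12a2), against 17% of all genes. Light against dark gave 0 calls in the 10 genes and 0% in all genes, with 4 of the 10 under an unadjusted 0.05. At 8am against 8pm the 10 genes gave 0 calls and all genes 0.00777%, with 1 of the 10 under the unadjusted value. At 12pm against 12am both shares were 0%, and 2 of the 10 were under the unadjusted value. At 4pm against 4am the 10 genes gave 0 calls and all genes 0.0466%, with 2 under the unadjusted value. At 8am and 8pm against the rest 1 of 10 was called against 16.4% of all genes, at 12pm and 12am 2 of 10 against 13.8%, and at 4pm and 4am 3 of 10 against 24.9%. Without the 4 arrays the counts were 2 of 10 against 20.6% of all genes for any difference, 6 of 10 against 30.4% at 8am and 8pm, 1 of 10 against 9.97% at 12pm and 12am, and 0 of 10 against 1.35% at 4pm and 4am. The counts from 18 arrays lie near the shares in all genes. The 6 of 10 at 8am and 8pm without the 4 arrays lies above its share, and 5 of those 6 genes are among the brightest on the array, whose shared movement is described further on. When each probe set was tested on its own, 0 of the members' 19 were called for a difference between any times, against 11.1% of all such sets.

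Scaling changed the split of calls over all genes. With the deposited scaling, 746 genes were called higher and 1371 lower at 8am and 8pm. The counts became 1275 and 679 after centring each array on its median. At 12pm and 12am the 920 higher and 862 lower became 268 and 2903 after centring and 423 and 999 after quantile normalization. At 4pm and 4am the 1712 higher and 1490 lower became 2317 and 1110 after centring. Centring moved the median of all genes from 0.061 to -0.23 at 12pm and 12am, from -0.049 to 0.097 at 8am and 8pm, and from 0.026 to 0.17 at 4pm and 4am.

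**Figure D1:**
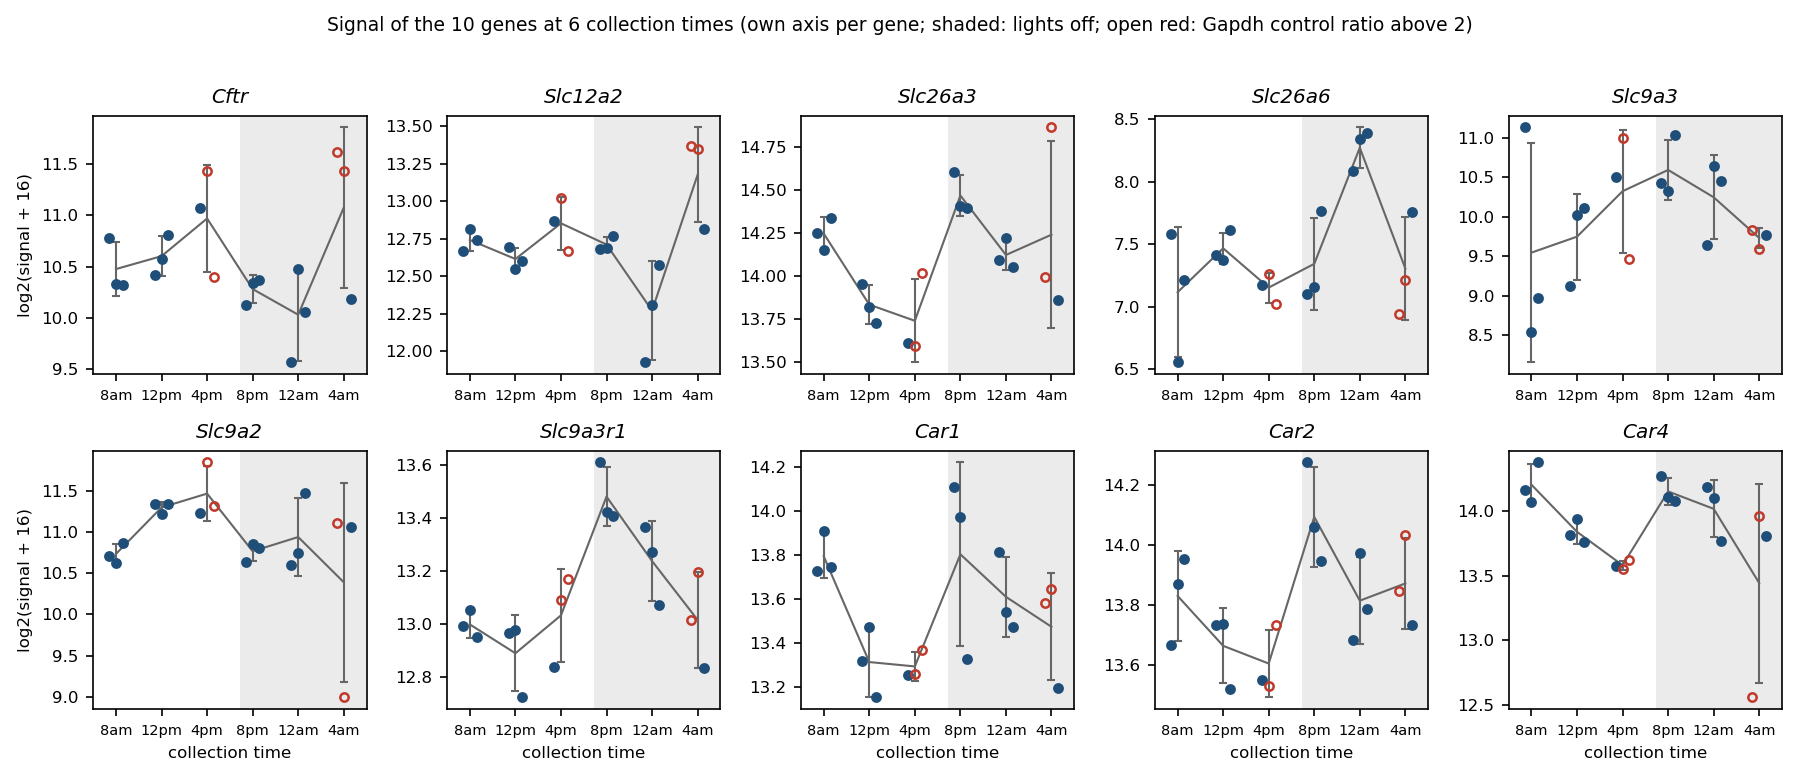
Each panel plots log2(signal + 16) of 1 gene (probe set with the highest mean) against collection time, with 1 point per array, the line through the time means and bars of 1 SD (n = 3). Open red points are the 4 arrays with a Gapdh control ratio above 2. Slc26a6 is highest in all 3 arrays of 12am, Slc9a3r1 in all 3 of 8pm, and the high Slc12a2 points at 4am are 2 open ones.

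Cftr, the chloride and bicarbonate channel of the apical membrane, was highest at 4am and 4pm and lowest at 12am. Its values at 4am were 11.62, 11.43 and 10.18 in arrays a, b and c, and at 4pm 11.07, 11.43 and 10.40. At 12am they were 9.57, 10.47 and 10.05. The 3 highest arrays of the gene, 4am a, 4am b and 4pm b, were the 3 with the highest control ratios. The means at 8am, 12pm and 8pm were 10.48 ± 0.26, 10.60 ± 0.20 and 10.28 ± 0.13, and all neighbours in the order of the 6 time means overlapped. At 4pm and 4am together the gene was 1.60-fold higher than at the other times (log2 difference 0.67 ± 0.21 SE, limma adjusted p = 0.0292). Without the 4 arrays the difference was 0.28 ± 0.19 (SE), with an adjusted p of 0.469. The call was also lost without 4pm a, 4pm b, 4am a or 4am b alone, and the difference then lay between 0.54 and 0.90 over all 18 ways of leaving out 1 array.

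The second Cftr probe set ran against the first. Its 3 lowest signals were 3.24 in 4am a, 14.6 in 4am c and 19.8 in 4pm b, and its highest was 135 in 12pm a. The first set was high in 4am a and 4pm b, though not in 4am c. The correlation of both sets over 18 arrays was -0.63, and -0.17 over the 14 arrays with low ratios. This set was below the filter, so the pattern of Cftr rests on 1 probe set.

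Slc12a2 encodes the sodium-potassium-chloride cotransporter NKCC1 of the basolateral membrane, which loads the cell with the chloride that CFTR releases. Its values were 13.37, 13.35 and 12.81 at 4am and 12.87, 13.02 and 12.67 at 4pm. They were 11.92, 12.31 and 12.58 at 12am. All 3 arrays of 12am lay below all 12 arrays of 8am, 4pm, 8pm and 4am. The difference between highest and lowest time mean was 0.91, or 1.87-fold, and the test over all times gave an adjusted p of 0.0423 (limma), the only such call among the 10 genes. It did not stand without any 1 of 14 of the 18 arrays, nor without the 4 arrays (adjusted p = 0.0944). At 12pm and 12am Slc12a2 fell by 0.43 ± 0.12 (SE) relative to the other times (adjusted p = 0.0258), and by 0.34 ± 0.10 without the 4 arrays (adjusted p = 0.0473). At 4pm and 4am it was 0.43 ± 0.12 (SE) higher, with an adjusted p of 0.0172 that became 0.324 without the 4 arrays. The first of these calls was lost in 7 of 32 alternative settings, among them quantile normalization, where the difference was -0.28. The 7 also include the fits without 12pm a, 12pm b, 12pm c or 12am a alone. The second call was lost without 4pm b or 4am a alone.

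The other probe sets of Slc12a2 did not share the high values at 4am. The set 1417623_at was at 8.59 in 4am a, its lowest array, against 11.59 ± 0.07 at 8am. The set 1448780_at was at 9.71 in the same array and at 11.44 ± 0.10 at 8am. Their correlations with the first set over 18 arrays were -0.46 and 0.07. Over the 14 arrays with low ratios the set 1448780_at followed the first with r = 0.88, and it too was lowest at 12am, at 10.19 ± 0.34. The low 12am values were thus seen in both of these sets, while the high 4am values were seen in 1 of 3. When probe sets were averaged, the 4pm and 4am difference turned from 0.43 to -0.22.

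**Figure D2:**
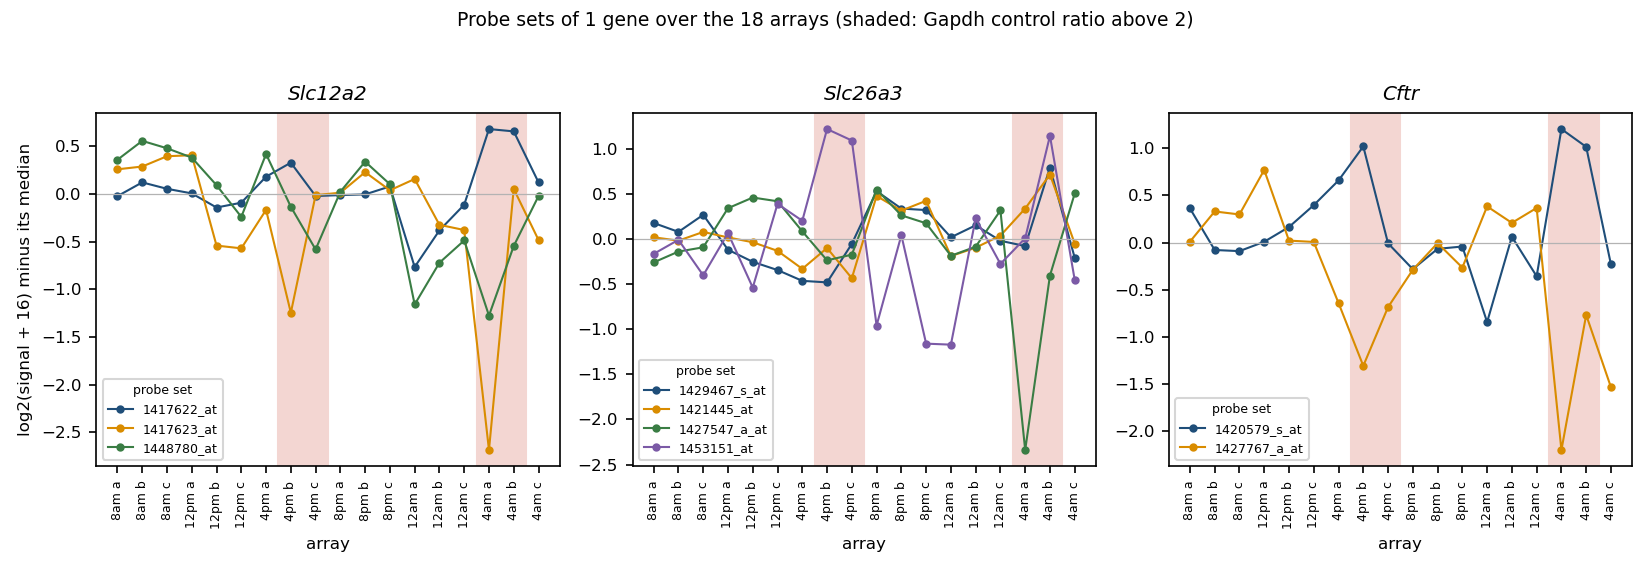
Each line is 1 probe set, as log2(signal + 16) minus its median over the 18 arrays, for Slc12a2, Slc26a3 and Cftr; shaded bands mark the 4 arrays with a Gapdh control ratio above 2. Probe sets of 1 gene part in the shaded arrays: in 4am a, 1417622_at of Slc12a2 is above its median while 1417623_at is far below.

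Slc26a3 encodes DRA, the apical exchanger that takes up chloride in return for bicarbonate, and loss of it causes congenital chloride diarrhoea in people. It was highest at 8pm, with values of 14.60, 14.41 and 14.39, and at 8am, with 14.25, 14.15 and 14.34. It was lowest at 4pm, with 13.61, 13.59 and 14.02, and at 12pm, with 13.95, 13.82 and 13.73. All 3 arrays of 8pm were above all 3 of 8am, and all 3 of 12am (14.09, 14.22 and 14.05) were above all 3 of 12pm. The arrays of 4am were spread from 13.86 to 14.86, with the top value in 4am b. In the order of the 6 time means, 2 of 5 neighbouring pairs did not overlap, 8pm over 8am and 12am over 12pm.

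The light against dark difference of Slc26a3 was -0.34 ± 0.12 (SE), a 1.26-fold lower level in the light, with a limma adjusted p of 0.749 and an unadjusted p of 0.0112. At 8am and 8pm against the rest it was 0.37 ± 0.13 (SE), 1.30-fold higher, with an adjusted p of 0.051. Without the 4 arrays that difference was 0.50 ± 0.08 (SE), with an adjusted p of 0.000624, and the test over all times gave 0.00644. After quantile normalization of the 18 arrays it was 0.065.

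Of the other Slc26a3 probe sets, 1421445_at had the same highest and lowest times, 13.72 ± 0.08 at 8pm and 13.03 ± 0.17 at 4pm, and followed the first with r = 0.77. The set 1427547_a_at was highest at 12pm, at 13.42 ± 0.06, and had 10.68 in 4am a. The set 1453151_at was highest at 4pm, at 9.69 ± 0.55, where 4pm b and 4pm c had 10.07 and 9.94. These 2 sets had r = -0.027 and -0.17 with the first, so the pattern belongs to 2 of 4 sets. With the sets averaged, the light against dark difference was 0.0034 and the 4pm against 4am difference turned from -0.50 to 0.030.

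Slc26a6 encodes PAT1, an apical exchanger of chloride for bicarbonate, oxalate and other anions. It had a single probe set of low signal, between 78.0 and 319, and no detection call was given with the values. It stood at 8.09, 8.34 and 8.39 in the 3 arrays of 12am, above each of the other 15, the highest of which was 7.77 in 8pm c. The other time means lay between 7.12 ± 0.52 at 8am and 7.47 ± 0.13 at 12pm. The level at 12am was 1.75-fold that at 12pm (difference 12pm minus 12am -0.81 ± 0.30 SE), with an unadjusted limma p of 0.0142 and an adjusted p of 0.524. With each array centred on its median, the gene was 0.35 higher at 12pm and 12am together than at the other times. With the deposited scaling it was 0.64 ± 0.18 (SE) higher, 1.56-fold, with a limma adjusted p of 0.0303. That call was lost in 11 of 31 alternative settings. These include quantile normalization (0.36) and the fits without the 4 arrays (0.52 ± 0.21 SE) or the 3 with the highest ratios (0.54 ± 0.20 SE). They also include the fits without any 1 of 7 arrays (12pm a, 12pm b, 12pm c, 8pm a, 8pm b, 12am b or 12am c).

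The pancreas, like the gut, expresses Slc26a6, and the 5 pancreatic genes that were not bright throughout also had their highest time mean at 12am, 11.63, against 10.68 at 4pm, 9.27 at 12pm, 7.73 at 4am, 6.07 at 8pm and 5.97 at 8am. Their mean was 12.61, 14.52 and 7.76 in 12am a, b and c, where Slc26a6 was at 8.09, 8.34 and 8.39. It was 13.62 in 4pm b, where Slc26a6 was at 7.26, and 11.48 in 4pm a, where Slc26a6 was at 7.17. Over the 18 arrays r between them was 0.39, and 0.51 over the 14, as a description of arrays that share scaling. Their part in the 12am values was not tested.

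Slc9a3 encodes NHE3, the apical exchanger that takes up sodium for protons. The letters CACGTG, called an E-box and known as a binding site of the CLOCK and BMAL1 factors, were looked for in the promoters of the members because the study is about time of day. RefSeq promoter windows from 250 bases before to 50 after a gene's start (build GRCm38.p6) were at hand for 6 of the 10 genes: Cftr, Slc26a3, Slc26a6, Slc9a3, Slc9a3r1 and Car4. Only that of Slc9a3 held an E-box, 87 bases before the start, against 7.15% of all 32851 windows. The letters read the same on both strands. No window of the 6 held a D-box, TTATGTAA or TTACGTAA on either strand, which 1.06% of windows held, or the core TAGGTCA of the element bound by REV-ERB and ROR factors, which 2.61% held; none of these motifs overlaps another here. The 250 bases before the start are shown for Slc9a3, with the E-box in capitals, and for Slc9a3r1, the gene nearest to a 24 h curve, which has none. Slc9a3 lies at chr13:74121163-74121412 and Slc9a3r1 at chr11:115163091-115163340, both on the plus strand.
Slc9a3: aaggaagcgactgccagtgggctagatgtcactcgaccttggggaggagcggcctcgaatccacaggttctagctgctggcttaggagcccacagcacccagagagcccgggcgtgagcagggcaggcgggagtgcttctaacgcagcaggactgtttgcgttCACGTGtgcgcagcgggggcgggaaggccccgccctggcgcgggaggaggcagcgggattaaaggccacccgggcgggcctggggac
Slc9a3r1: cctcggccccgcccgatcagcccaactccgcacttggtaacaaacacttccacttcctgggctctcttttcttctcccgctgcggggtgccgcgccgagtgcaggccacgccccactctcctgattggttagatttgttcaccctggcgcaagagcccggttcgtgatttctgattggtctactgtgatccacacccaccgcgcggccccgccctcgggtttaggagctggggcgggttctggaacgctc
A match is a description of letters and shows no binding.

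The 3 arrays of 8am were far apart for Slc9a3 (SD 1.39), more than its highest and lowest time means (1.05). The values were 11.13, 8.54 and 8.97 at 8am, and at 4pm they were 10.51, 10.997 and 9.47. At 8pm they were 10.43, 10.32 and 11.03, the highest mean at 10.59 ± 0.38. The first 8am array was its highest of all 18, and the second its lowest. The fitted 24 h amplitude was 0.53 ± 0.20 (SE), the largest of the 10 genes, with a peak 12.8 h after lights on, an unadjusted limma p of 0.0526 and an adjusted p of 0.948. At 8am against 8pm the difference was -1.05 ± 0.53 (SE), with an adjusted p of 1.00. The second probe set, 1432771_at, had its highest mean at 12pm (7.55 ± 0.16) and followed the first with r = 0.50, both being highest in 8am a.

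Slc9a2 encodes NHE2, another sodium-proton exchanger of the colon epithelium, and had 1 probe set. Its values were 11.23, 11.84 and 11.32 at 4pm and 11.34, 11.21 and 11.33 at 12pm. At 4am they were 11.11, 8.996 and 11.06. All 3 arrays of 4pm were above all 3 of 4am, but the mean of 4am was set by 4am b, whose signal of 495 compared with 2195 and 2125 in the other two. The 4pm against 4am difference was 1.07 ± 0.40 (SE), 2.10-fold, with an unadjusted limma p of 0.0165 and an adjusted p of 0.184. Over the 14 arrays it was 0.17 ± 0.32 (SE), resting on 1 array at each time. At 8am and 8pm, where the 6 arrays lay between 10.62 and 10.86, the difference from the rest was -0.27 ± 0.25 (SE) with all arrays (adjusted p = 0.476). Over the 14 arrays Slc9a2 fell by 0.38 ± 0.13 (SE) at these times, with an adjusted p of 0.0397.

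Slc9a3r1 encodes NHERF1, a scaffold with PDZ domains that holds NHE3, CFTR and other transporters at the apical membrane. It had the lowest p of the 10 genes for a 24 h curve. Its values were 13.61, 13.42 and 13.41 at 8pm, and 13.37, 13.27 and 13.07 at 12am. They were 12.99, 13.05 and 12.95 at 8am and 12.97, 12.98 and 12.72 at 12pm. All 3 arrays of 8pm were above the other 15, and all 3 of 12am were above all 6 of 8am and 12pm. The 24 h amplitude was 0.24 ± 0.07 (SE), a 1.40-fold difference from trough to peak, with the peak 14.6 h after lights on. The unadjusted limma p was 0.0118 and the adjusted p 0.948, so the gene is not called rhythmic. The 8am against 8pm difference was -0.48 ± 0.16 (SE), 1.40-fold lower at 8am, with an unadjusted p of 0.00643 and an adjusted p of 0.788. At 12pm against 12am it was -0.35 ± 0.16 (SE), with an adjusted p of 0.579. Light against dark gave -0.27 ± 0.09 (SE), with an unadjusted p of 0.00769 and an adjusted p of 0.749.

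Without the 4 arrays the Slc9a3r1 amplitude was 0.24 ± 0.07 (SE) again, with a peak at 14.4 h. Other comparisons of the gene moved: the test over all times gave an adjusted p of 0.0159 against 0.0676 with all 18, and the difference of 8am and 8pm from the rest went from 0.20 (adjusted p = 0.168) to 0.29 (adjusted p = 0.0210). That difference came from 8pm, since the 8am mean was the second lowest of the 6 with all arrays. The set 1438115_a_at followed the first with r = 0.98, at 13.47 ± 0.13 at 8pm and 12.86 ± 0.12 at 12pm. The third set, 1450982_at, was also high at 8pm (12.17 ± 0.03) and 12am (12.35 ± 0.05), and was low in 4am a and 4am b, at 10.78 and 11.16. After quantile normalization the 8am against 8pm difference of the first set was -0.43, and that of 8am and 8pm from the rest was 0.022. All 3 probe sets of Slc9a3r1 were thus higher at 8pm and 12am than at 8am and 12pm in their time means.

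Car1 encodes a cytosolic carbonic anhydrase abundant in colon epithelium and red blood cells. Its values were 13.73, 13.91 and 13.75 at 8am and 14.11, 13.97 and 13.33 at 8pm. At 4pm they were 13.25, 13.26 and 13.37, and at 12pm 13.32, 13.47 and 13.15. All 3 arrays of 8am were above all 6 of 12pm and 4pm, whereas 8pm c was not. Car1 at 8am and 8pm was 0.38 ± 0.12 (SE) higher than at the other times, 1.30-fold, with a limma adjusted p of 0.0378. Without the 4 arrays the difference was 0.46 ± 0.13 (SE), with an adjusted p of 0.0138. After quantile normalization it was 0.10, with an adjusted p of 0.488. The call was lost in 11 of the 18 fits that left out 1 array (8am a, 8am b, 8am c, 12pm a, 12pm c, 4pm a, 4pm b, 8pm a, 8pm b, 12am b or 12am c), with differences from 0.30 to 0.49. Its 3 arrays of 12am (13.82, 13.54 and 13.47) were all above those of 12pm, the nearest pair being 13.474 and 13.472.

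Car2 encodes the fast cytosolic carbonic anhydrase. It was highest at 8pm, with values of 14.27, 14.06 and 13.94, and lowest at 4pm, with 13.55, 13.53 and 13.73. The difference between these means, 0.49 or 1.40-fold, was the smallest range among the 10 genes. Light against dark gave -0.23 ± 0.08 (SE), with an unadjusted limma p of 0.0166 and an adjusted p of 0.749. Its 8am and 8pm arrays were 0.22 ± 0.09 (SE) above the rest (adjusted p = 0.100), and 0.27 ± 0.09 without the 4 arrays (adjusted p = 0.0392), but -0.091 after quantile normalization.

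Car4 encodes a carbonic anhydrase anchored on the outer face of the apical membrane. Its values were 14.17, 14.07 and 14.38 at 8am and 14.27, 14.11 and 14.08 at 8pm. At 4pm they were 13.57, 13.55 and 13.62, below each array of 8am, 12pm, 8pm and 12am. At 4am they were 12.56, 13.96 and 13.81, and 4am a, with a signal of 6020, was far below every other array. At 4pm and 4am Car4 fell by 0.54 ± 0.16 (SE) relative to the other times, with a limma adjusted p of 0.0223. With the other 14 arrays the difference was -0.37 ± 0.12 (SE), with an adjusted p of 0.134, and without 4pm b alone the call was lost too. Both probe sets were alike (r = 0.98), the second having 11.64 in 4am a. Against the rest, 8am and 8pm were 0.46 ± 0.16 (SE) higher in Car4, with an adjusted p of 0.0538, and 0.37 ± 0.09 (SE) without the 4 arrays, with an adjusted p of 0.00936.

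**Figure D3:**
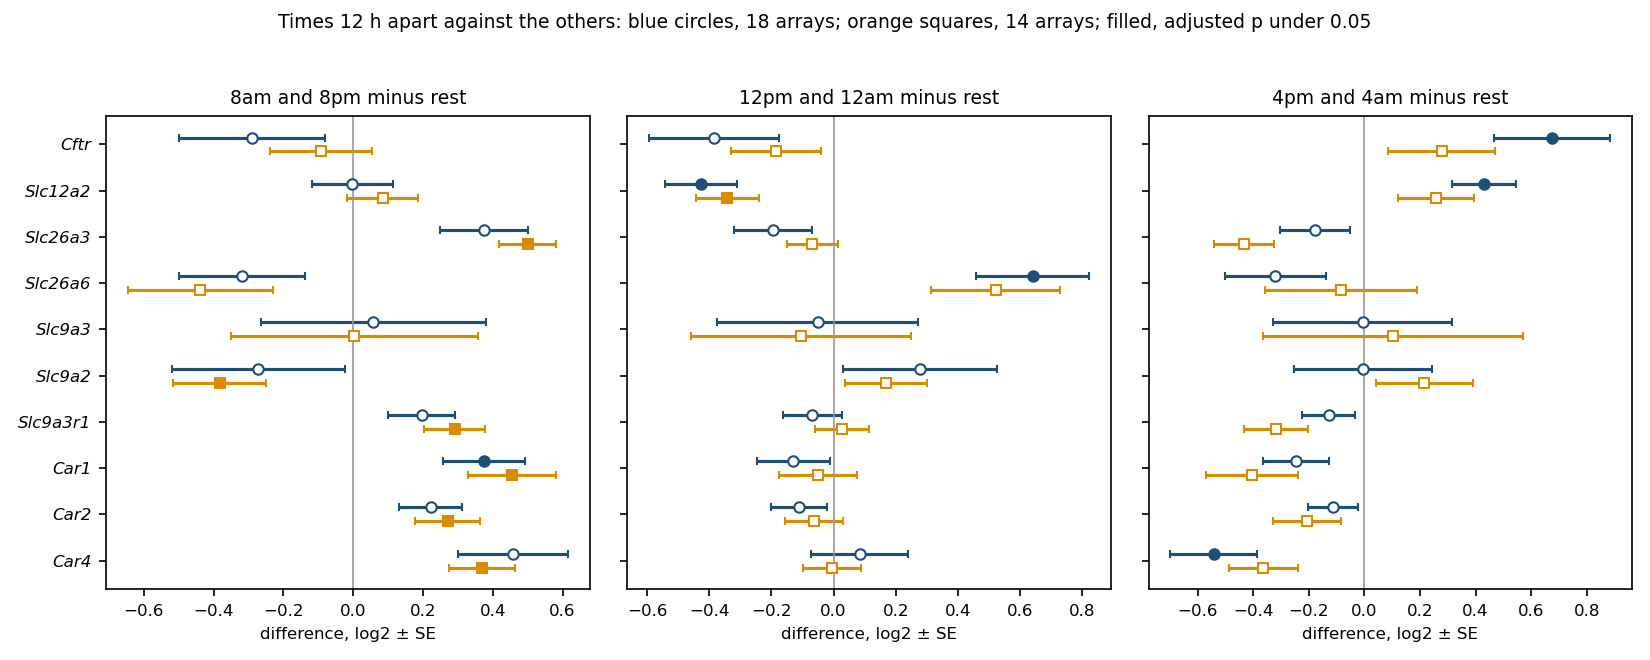
Each panel plots, for the 10 genes, the log2 difference between 2 times 12 h apart and the other 4 times, with bars of 1 SE, from 18 arrays (blue circles) and from the 14 arrays with low Gapdh control ratios (orange squares). Filled symbols have an adjusted p under 0.05: 1, 2 and 3 genes with 18 arrays, and 6, 1 and 0 with 14.

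Among the 10 genes, 5 (Slc26a3, Slc9a3r1, Car1, Car2 and Car4) have a probe set in the top 1% of mean signals. The other 444 probe sets of that range moved in much the same way: their mean was 13.85 ± 0.12 at 8am and 13.85 ± 0.09 at 8pm, against 13.49 ± 0.15 at 12pm, 13.39 ± 0.15 at 4pm, 13.63 ± 0.16 at 12am and 13.56 ± 0.23 at 4am. Their difference at 8am and 8pm against the rest was 0.33, beside 0.37 for Slc26a3, 0.38 for Car1, 0.22 for Car2, 0.46 for Car4 and 0.20 for Slc9a3r1. For Slc26a3, Car1 and Car4, 8am and 8pm had the highest 2 time means, as they had in the bright probe sets at large, while Slc9a3r1 was low at 8am and Car2 at 8am was below 4am. After quantile normalization the difference at 8am and 8pm was 0.065 for Slc26a3, 0.10 for Car1, -0.091 for Car2, 0.16 for Car4 and 0.022 for Slc9a3r1. What part the scaling of the arrays has in these differences was not tested beyond these values. Of the 10 epithelial markers, 4 (Epcam, Krt8, Krt19 and Lgals4) were called higher at 8am and 8pm and none lower, with a median difference of 0.37, against 5.8% of all genes called higher. These 4 lie in the same bright range, and their part in the result was not tested. At 8am against 8pm the bright probe sets differed by 0.0048, beside -0.48 for Slc9a3r1 and -0.22 for Slc26a3. At 12pm against 12am they differed by -0.13, beside -0.35 and -0.29.

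**Figure D4:**
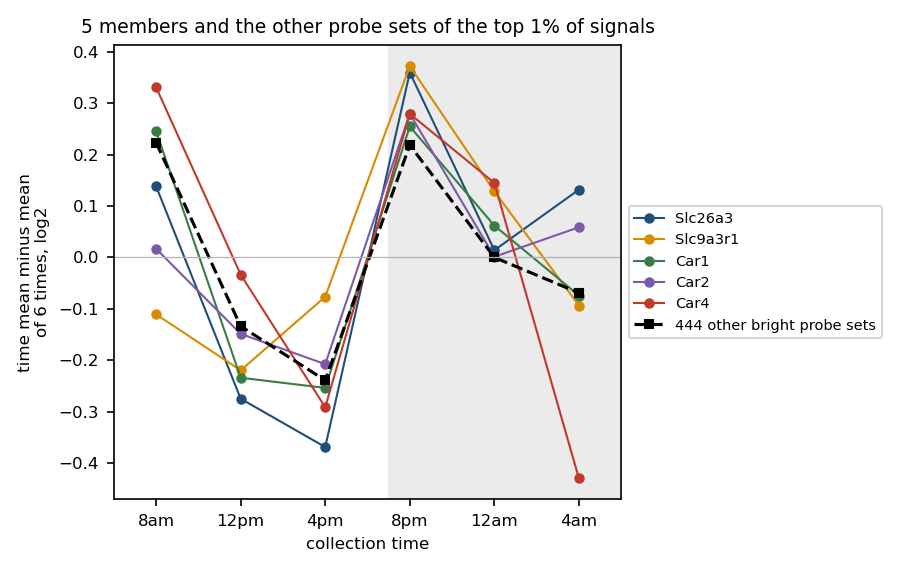
Time means of the 5 genes with a probe set in the top 1% of signals, and of the mean of 444 other probe sets of that range (dashed black), each minus its own mean over the 6 times, in log2 units against collection time. The dashed line is high at 8am and 8pm and low at 4pm, as are Car1 and Slc26a3; Slc9a3r1 is high at 8pm and low at 8am, and Car4 is lowest at 4am.

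Among the 10 genes themselves, Slc26a3 and Car2 had the closest pattern, with r = 0.86 over the 18 arrays and 0.88 over 14. Slc26a3 had r = 0.68 with Car1, 0.66 with Slc9a3r1 and 0.48 with Car4, and these were 0.76, 0.81 and 0.85 over the 14 arrays. Slc9a2 ran against this group, with r = -0.82 to Slc26a3 (-0.70 over 14) and -0.36 to Car4 (-0.81 over 14). Cftr and Slc12a2, the pair used in chloride secretion, had r = 0.81, which was 0.56 over 14 arrays. Slc26a6 had r = -0.59 with Slc12a2 over both. These correlations describe 18 arrays that share scaling but differ in median signal and in the Gapdh control ratio, and carry no test. With the mean of the 444 other bright probe sets, r was 0.85 for Slc26a3, 0.76 for Car1, 0.74 for Car2, 0.73 for Car4 and 0.61 for Slc9a3r1. It was -0.63 for Slc9a2 and -0.41 for Cftr. What part brightness has in the likeness of the first group was not tested.

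**Figure D5:**
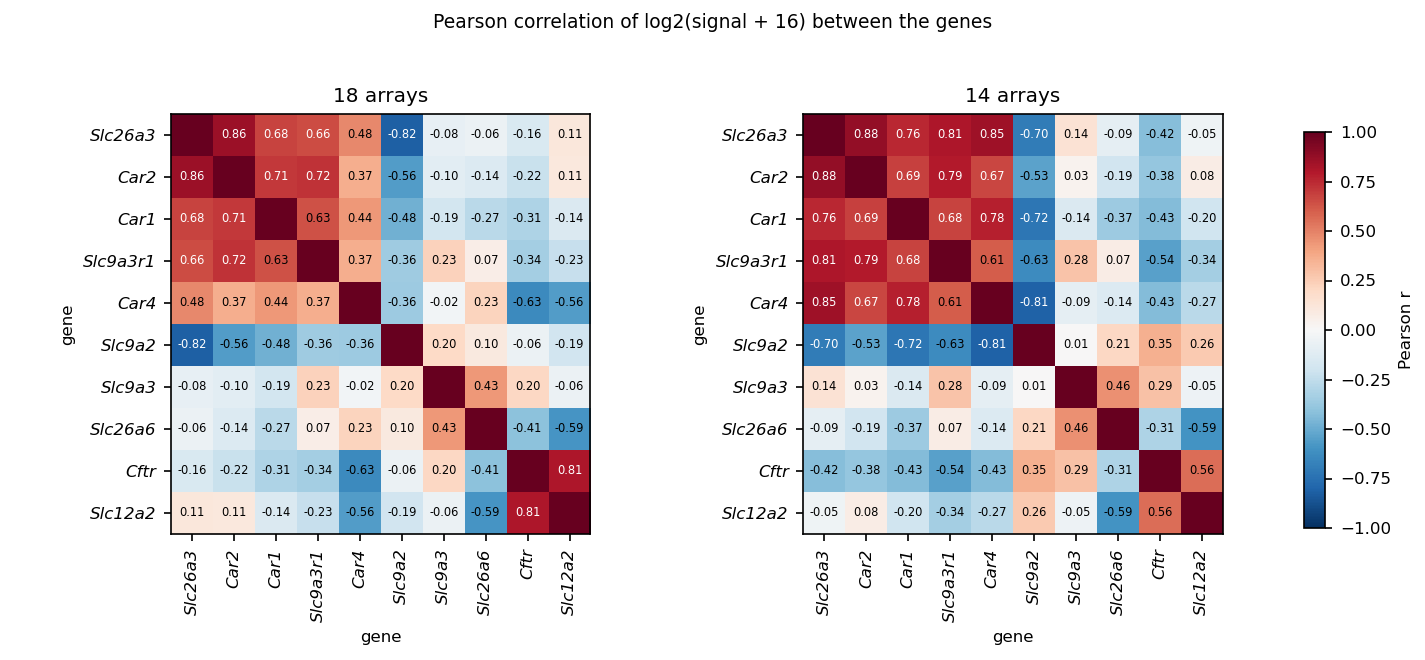
Pearson correlation of log2(signal + 16) between the 10 genes over all 18 arrays (left) and over the 14 arrays with a Gapdh control ratio below 2 (right), on a colour scale from -1 to 1. Slc26a3, Car2, Car1, Slc9a3r1 and Car4 form a block of positive values in both, with Slc9a2 negative against all 5.

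Over all 12870 genes, the 2 whose 18 values lay closest to each member by Pearson r were found. Brackets hold r over the 18 arrays and then over the 14. The scaffold Slc9a3r1 was closest to Usp2 (0.82, 0.91), a deubiquitinase gene known as an output of the circadian clock, and then to Cfl1 (0.79, 0.85). Slc26a3 was closest to Plac8 (0.96, 0.93) and Selenop (0.95, 0.92), and Car4 to Actb (0.96, 0.92) and Sptan1 (0.94, 0.81). Car2 was closest to Slc26a3 itself (0.86, 0.88) and then to Rps7 (0.83, 0.79), and Car1 to Rpl10a (0.85, 0.85) and Pabpc1 (0.81, 0.88). Cftr was closest to Tlcd4 (0.95, 0.87) and Trappc11 (0.93, 0.83), and Slc12a2 to Rab5a (0.97, 0.94) and B230219D22Rik (0.95, 0.91). Slc9a2 was closest to Xdh (0.90, 0.64) and Rab3gap2 (0.89, 0.67), whose r fell over the 14. Slc26a6 was closest to Ephx3 (0.86, 0.92) and Ggct (0.84, 0.88). Over 18 arrays Slc9a3 had the loosest best match, Fam98a (0.76, 0.72), before Cyp51 (0.74, 0.73).

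Other genes of ion and acid transport were taken from 8 lists of 69 genes, of which 63 were on the array and 47 were tested. For a difference between any times, 5 of 47 were called against 17% of all genes, and none followed a 24 h curve or differed between light and dark or at any pair of times 12 h apart. The 5 were Slc4a8, a sodium-driven chloride-bicarbonate exchanger (range 1.89 between time means, limma adjusted p = 0.0102), Slc4a3, the anion exchanger AE3 (1.19, 0.0285), Slc9a9, a sodium-proton exchanger of inner membranes (1.11, 0.0382), Slc12a1, the sodium-potassium-chloride cotransporter of the kidney (1.25, 0.0461), and Ano1, the calcium-activated chloride channel (1.08, 0.0411). The mean of Ano1 was 12.98. Those of Slc4a8, Slc4a3, Slc9a9 and Slc12a1 were 7.24, 7.65, 7.57 and 7.53, not far above the filter at 7.10. Without detection calls, such low signals cannot be set against background. Over the 14 arrays 13 of 47 were called, against 20.6% of all genes, and Slc12a1, Slc4a8 and Ano1 were among them while Slc4a3 and Slc9a9 were not.

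By pairs of times, 2 of the 47 were called higher and 6 lower at 8am and 8pm (16.4% of all genes were called), with a median difference of -0.061 beside -0.049 over all genes. Slc4a4, the electrogenic sodium-bicarbonate cotransporter that brings bicarbonate in at the basolateral side, was 0.75 ± 0.24 (SE) higher there (adjusted p = 0.0413), and Ezr, the actin linker that binds NHERF1, was 0.43 ± 0.11 higher (adjusted p = 0.0134). Slc4a8 fell by 1.11 ± 0.19 and Slc9a9 by 0.73 ± 0.17. At 12pm and 12am, where 13.8% of all genes were called, 6 were higher and 1 lower, the lower one being Ano1, which fell by 0.61 ± 0.15 (adjusted p = 0.0185) beside the 0.43 of Slc12a2. The secreted anhydrase Car6 was 0.63 ± 0.17 higher (adjusted p = 0.0264), at a low mean of 7.50. At 4pm and 4am, with 24.9% of all genes called, 2 were higher and 6 lower, among them the chloride channel Clcn2, which fell by 1.75 ± 0.60 (adjusted p = 0.0431), and Guca2b, the peptide uroguanylin that opens CFTR through cyclic GMP, which fell by 0.50 ± 0.17 (adjusted p = 0.0386). Guca2a and Gucy2c, the guanylin peptide and the receptor of both, had adjusted p values of 0.153 and 0.502 there. Over the 14 arrays the counts among the 47 were 5 higher and 11 lower at 8am and 8pm, against 30.4% of all genes called, 1 and 1 at 12pm and 12am, against 9.97%, and 0 and 1 at 4pm and 4am, against 1.35%. The 1 at 4pm and 4am was Clcn5, named after its values were seen, so Clcn2 and Guca2b lost their calls.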

How the data were processed

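Distal colon RNA was measured on 18 one-colour Affymetrix arrays, 3 at each of 6 times. The deposited file is 1 table of linear intensity, called signal, for each probe set on each array. It came from the authors' GCOS software, per the submitters' processing notes, which give no version. The trimmed mean of each array was 500.0, so each array had been scaled by 1 factor. There are no detection calls, so low signals cannot be set against background. Precision is limited by how many arrays there are. Of 45037 probe sets that are not controls, 34945 had 1 symbol in the platform annotation, 932 several and 9160 none listed. Gene names and promoter windows were matched by symbol.

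Values were taken as log2(signal + 16) with the deposited scaling. Probe sets with a mean at or above the 40th percentile (7.10) were kept (27022), and the one with the highest mean stood for each of 12870 genes. limma 3.58.1 in R 4.3.3 fitted a 24 h cosine curve (15 residual degrees of freedom) and 6 time means (12 residual degrees of freedom) to all 18 arrays, with empirical Bayes moderation and a trend, and p was adjusted by Benjamini-Hochberg over all genes. The scripts were tested on simulated data. Samples were grouped by the time in their titles. Nothing says that arrays of 1 time came from separate animals, so p-values speak only of the spread among these arrays, which may be technical.

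The genes described, the gene lists, the marker lists and the contrasts of times 12 h apart against the rest were chosen with earlier results of these data known. Named beside all 10 genes are, of each list of transport genes, up to 3 with the lowest p over the 6 times, and for each member the 2 genes with the highest Pearson correlation. Alternatives were other constants, scalings, filters, probe set rules and moderation, array weights, a replicate block, and fits without each array or without the 3 or 4 arrays with the highest Gapdh control ratios. The counts of transport genes without those arrays, the medians and signs under other scalings and the pancreatic list without Sycn and Cela1 were added after the data had been seen.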

Additional observations from a re-analysis of the deposited data

Results flagged for a closer look

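In each gene the 9 arrays of the light and the 9 of the dark were searched for 1 array far from the rest, by Dixon's test at 95%, which gave 2 cases in 20 groups, where chance gives about 1 in 20. Slc9a2 in the dark had 8.996 in 4am b, with the nearest array at 10.60. Car4 in the dark had 12.56 in 4am a, with the nearest array at 13.77. Both arrays are among the 3 with the highest Gapdh control ratios, 18.2 in 4am b and 36.0 in 4am a. In the same arrays Car4 was at 13.96 in 4am b and Slc9a2 at 11.11 in 4am a, so each low value was seen in 1 of the 2 arrays.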

How the results depend on the processing

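The count of the 10 genes called stayed at 0 for the 24 h curve and for 12pm against 12am under every alternative run. Array weights gave 10 calls for any difference between times, 4 for light against dark, 1 for the 8am to 8pm difference, 2 for 4pm to 4am, 6 at 8am and 8pm against the rest and 5 at 12pm and 12am against the rest. For any difference between times the count of 1 became 2 with a constant of 64 or with median centring, and 0 without a filter, with every probe set tested on its own or with the replicate block. At 8am and 8pm the count of 1 became 2 with the constant of 64, 3 with median centring, and 0 with quantile normalization or without the trend. At 12pm and 12am the count of 2 became 0 with quantile normalization and 1 with the filter at the 60th percentile or with the mean of probe sets.

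With the 3 arrays highest in the Gapdh ratio left out, the counts were 3 for any difference, 6 at 8am and 8pm, 0 at 12pm and 12am and 0 at 4pm and 4am, and without 4 arrays they were 2, 6, 1 and 0. Leaving out 1 array gave 0 to 6 for any difference, 0 to 2 for light against dark, 0 to 3 at 4pm against 4am, 0 to 5 at 8am and 8pm, 0 to 3 at 12pm and 12am and 0 to 4 at 4pm and 4am. The high ends for the first 3 came without 4am c, and that at 8am and 8pm without 4am b. Apart from the shares named for any difference between times, the counts under the alternatives are given without the shares over all genes. None of them is read as a result about the 10 genes. Among the single-gene values followed under every alternative, 4 changed sign. With the mean of probe sets these were Slc26a3 for light against dark (0.0034) and for 4pm against 4am (0.030) and Slc12a2 at 4pm and 4am (-0.22), and with quantile normalization Car2 at 8am and 8pm (-0.091). Over all 70 differences (10 genes, 7 contrasts), 12 changed sign with quantile normalization and 12 with median centring, none of them among the 6 called. The cause of these changes was not tested, apart from the disagreement of probe sets given above.

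The letters a, b and c did not pair the samples: deviations of arrays with the same letter had a mean correlation of -0.012 (from -0.49 to 0.30), and 4 of 18 arrays fitted best with their own letter. With the replicate block the counts were 0, 1, 2 and 3 for any difference and for the 3 pairs of times against the rest. Scanner background was not at hand, and low signals are the least certain. Among them are those of Slc26a6, the second Cftr probe set, Slc4a8, Slc4a3, Slc9a9, Slc12a1 and Car6.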
